A study of Mus musculus with 18 samples.

Results

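The control guides of a pooled CRISPR screen in MC38 cells, a mouse colon adenocarcinoma line, were taken as the guides whose gene entry is CTRL followed by a number. They were 24 of the 18146 guides in the table (0.132%), 1 guide per entry, numbered without a gap from 1 to 24. The series also holds 16 RNA sequencing libraries of control and Mbtps1-knockdown MC38 cells and tumours. The screen has 2 libraries, both of MC38 cells carrying the guide library. One came from C57BL/6 wild-type mice and the other from B6-Rag1-KO mutant mice, and the Rag1-KO library was the baseline of every ratio. How many animals stand behind each library, their age and the time after implantation are not given in the sources used here. The table and labels name the controls but do not describe them, and their spacer sequences are not used here, so that they match no site in the mouse genome was not tested.

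A pooled screen introduces 1 guide RNA into most cells, and the number of sequencing reads of a guide stands for the number of cells that carry it. A non-targeting guide loads Cas9 but is designed to match no genomic site, so neither a gene nor the DNA is meant to be cut, and its change between conditions shows what a guide without a target does. Rag1 encodes a subunit of the recombinase that joins antigen receptor genes, and mice without it lack mature T and B cells. The ratio of a guide between C57BL/6 and Rag1-KO hosts is therefore commonly read as the effect of adaptive immunity on cells that lost the targeted gene. The screen has 1 library per host, so no test was possible, and all ratios describe these 2 libraries.

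The control guides had nearly the same median ratio as the library as a whole and a wide spread around it. Their median log2 ratio of C57BL/6 over Rag1-KO was 0.085, against 0.12 over the 18108 guides that reached 20 reads when both libraries were added. In the mean they were less close, -0.0054 for the controls and 0.093 over all these guides. The ratio was taken on CPM (the reads of a guide per 1000000 reads of its library) after adding 1 CPM. The SD of the control ratios was 0.98 (24 guides), close to the 0.93 of the 18084 targeting guides. The median absolute deviation, scaled to match the SD of a normal distribution, gave 0.73 for controls and 0.86 for targeting guides. Which spread was the wider thus rests on the measure. Single control guides ran from -2.28 to 1.84, a 4.87-fold lower to a 3.57-fold higher abundance in the C57BL/6 library. The C57BL/6 library held 27142741 reads and the Rag1-KO library 19114273.

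All 24 controls were well read. None was at 0 in either library and none was below the 20-read minimum, which 38 other guides missed. The least read control, CTRL0005, had 502 reads over both libraries and the most read, CTRL0001, had 9383. Counting error on a control log2 ratio, from Poisson counting of its reads, lay between 0.033 and 0.12. The sources used here do not say whether reads carry molecular identifiers, and this and all intervals cover counting error only.

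At the low end stood 3 controls that were more than 2-fold lower in the C57BL/6 library. CTRL0001 had 77.4 CPM in C57BL/6 and 381 CPM in Rag1-KO hosts, a log2 ratio of -2.28 (95% counting interval -2.37 to -2.23, exact binomial, without the added 1 CPM). It was the most abundant of the controls in Rag1-KO hosts, above 99.8% of all guides there, and only the eighth of the controls in C57BL/6 hosts. CTRL0018 had 38.4 CPM in C57BL/6 and 143 CPM in Rag1-KO hosts, a log2 ratio of -1.87 (counting interval -2.00 to -1.79). CTRL0008 had 43.5 CPM in C57BL/6 and 127 CPM in Rag1-KO hosts, a log2 ratio of -1.53 (counting interval -1.65 to -1.45). CTRL0018 and CTRL0008 lay near the middle of all guides in the C57BL/6 library (percentiles 43.2 and 48.7), and among the upper ones in the Rag1-KO library (percentiles 94.1 and 92.1). Below the 2-fold mark but close to it were CTRL0015, with 59.5 CPM in C57BL/6 and 116 CPM in Rag1-KO hosts (log2 ratio -0.95), and CTRL0011, with 120.0 CPM in C57BL/6 and 231 CPM in Rag1-KO hosts (log2 ratio -0.94).

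At the high end stood 4 controls that were more than 2-fold higher in the C57BL/6 library. CTRL0006 had 33.4 CPM in C57BL/6 and 8.63 CPM in Rag1-KO hosts, from 907 and 165 reads, a log2 ratio of 1.84 (counting interval 1.71 to 2.20). It was the least abundant control in Rag1-KO hosts. CTRL0010 had 54.6 CPM in C57BL/6 and 21.6 CPM in Rag1-KO hosts, a log2 ratio of 1.30 (counting interval 1.18 to 1.501). CTRL0019 had 192 CPM in C57BL/6 and 90.4 CPM in Rag1-KO hosts, a log2 ratio of 1.08 (counting interval 1.01 to 1.17), and was the most abundant control in C57BL/6 hosts. CTRL0014 had 49.8 CPM in C57BL/6 and 23.3 CPM in Rag1-KO hosts, a log2 ratio of 1.06 (counting interval 0.94 to 1.25). The controls with high ratios were thus of low, middle and high abundance alike. Just inside the 2-fold mark were CTRL0009, with 52.6 CPM in C57BL/6 and 30.9 CPM in Rag1-KO hosts (log2 ratio 0.75), and CTRL0003, with 40.8 CPM in C57BL/6 and 26.3 CPM in Rag1-KO hosts (log2 ratio 0.62).

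The other 13 controls stayed within 0.5 of a log2 ratio of 0. For 5 of them the counting interval held 0. CTRL0012 had 75.3 CPM in C57BL/6 and 79.2 CPM in Rag1-KO hosts (log2 ratio -0.072). CTRL0007, one of the least abundant, had 17.8 CPM in C57BL/6 and 18.4 CPM in Rag1-KO hosts (log2 ratio -0.044). CTRL0021 had 25.9 CPM in C57BL/6 and 26.1 CPM in Rag1-KO hosts (log2 ratio -0.011). These 3 guides differed in abundance and stood in the same order in both hosts. CTRL0022 had 106 CPM in C57BL/6 and 100.4 CPM in Rag1-KO hosts (log2 ratio 0.076). CTRL0020 had 72.7 CPM in C57BL/6 and 68.1 CPM in Rag1-KO hosts (log2 ratio 0.093).

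Among the remaining 8 controls the shift was small but larger than counting error. CTRL0013 had 27.4 CPM in C57BL/6 and 37.7 CPM in Rag1-KO hosts (log2 ratio -0.45). CTRL0004 had 22.4 CPM in C57BL/6 and 29.1 CPM in Rag1-KO hosts (log2 ratio -0.36). CTRL0002 had 99.7 CPM in C57BL/6 and 121 CPM in Rag1-KO hosts (log2 ratio -0.27). These 3 were lower in the C57BL/6 library, and the next 5 were higher there. CTRL0024 had 166 CPM in C57BL/6 and 137 CPM in Rag1-KO hosts (log2 ratio 0.27). CTRL0005, the least abundant of all by mean CPM, had 12.01 CPM in C57BL/6 and 9.21 CPM in Rag1-KO hosts (log2 ratio 0.35). CTRL0017 had 56.9 CPM in C57BL/6 and 43.7 CPM in Rag1-KO hosts (log2 ratio 0.37). The last pair was of high abundance in both hosts. CTRL0023 had 137 CPM in C57BL/6 and 104 CPM in Rag1-KO hosts (log2 ratio 0.40). CTRL0016 had 133 CPM in C57BL/6 and 98.5 CPM in Rag1-KO hosts (log2 ratio 0.43).

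Over the whole control list, 4 guides were at or above 2-fold (16.7%) and 3 at or below it (12.5%), 7 in all (29.2%, exact binomial 95% interval 12.6% to 51.1% for a share of 24 guides). Over all guides 14.9% were at or above 2-fold and 11.1% at or below it, 26.0% in all. The share of controls past 2-fold was thus near that of the library as a whole. The split between higher and lower rests on the scaling. When the libraries were scaled by the median ratio over all guides, 2 controls were higher and 5 lower, against 11.9% and 13.6% of all guides. When they were scaled by the summed reads of the controls, 5 were higher and 3 lower, against 23.1% and 7.17% of all guides.

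The control spread was wider than Poisson counting of the same reads would give. Poisson counting gives an SD of 0.066 over the 24 ratios, and the observed SD was 14.9 times that. With no molecular identifiers known, the Poisson value is taken as a lower limit on sampling noise, and what else entered the spread was not tested. For 19 of the 24 controls the counting interval excluded a ratio of 0. Across the 24 controls the log2 abundance in the C57BL/6 library and in the Rag1-KO library had a Pearson correlation of 0.71 and a Spearman correlation of 0.66, against 0.77 and 0.74 over all 18108 guides. Both libraries of a guide share its starting abundance in the cell pool, and no library from before implantation is analysed here, so these values are descriptions only. In the C57BL/6 library the control abundances spanned 12.01 to 192 CPM with an SD of 1.02 on the log2 scale. In the Rag1-KO library they spanned 8.63 to 381 CPM with an SD of 1.39.

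Control guides were somewhat more abundant than targeting guides, and more so in the Rag1-KO library. Their median abundance was 55.7 CPM in the C57BL/6 library, against 44.7 CPM for targeting guides. In the Rag1-KO library it was 73.6 CPM for controls and 40.8 CPM for targeting guides. With the guides ordered by reads and divided into 10 bins of nearly equal size, 6 controls (25%) fell in the highest bin, and 14 of the 24 in the upper 5 bins. The median log2 ratio of targeting guides was 0.16 in the lowest bin and -0.047 in the highest. The control ratios were not matched to the library by abundance. The controls took 0.171% of C57BL/6 reads (exact binomial 95% interval 0.170% to 0.173%) and 0.207% of Rag1-KO reads (0.205% to 0.209%), where they were 0.132% of guides. Abundance in the cell pool before implantation and growth afterwards cannot be told apart from these libraries.

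In the Rag1-KO library 1 guide held the largest part of the summed control reads. The controls summed to 1715 CPM in the C57BL/6 library and 2071 CPM in the Rag1-KO library, a log2 ratio of -0.27, opposite in sign to the median of the single ratios. CTRL0001 alone held 4.51% of the control reads in C57BL/6 hosts and 18.4% in Rag1-KO hosts. Without CTRL0001 the sums were 1637 CPM in C57BL/6 and 1690 CPM in Rag1-KO hosts, a log2 ratio of -0.045. The median ratio without it was 0.093 and the SD 0.87. CTRL0001 was singled out after its values were seen.

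Guides to genes listed at 0 in control MC38 cells had nearly the same median ratio as the controls. This class was set from the RNA libraries and not by the design of the guides. In the mean the match was less close, 0.072 for these guides and -0.0054 for the controls. Genes listed at 0 in all 3 RNA libraries of control cultured cells had 3183 guides in the screen (796 genes). Their median log2 ratio was 0.086 and their SD 0.88. Whether their spread was narrower than that of the controls rests on the measure and on CTRL0001. The control SD was 0.98, and 0.87 without CTRL0001. From the scaled median absolute deviation the spread was 0.85 for these guides and 0.73 for the controls. Olfactory receptor genes, which encode odour receptors of the nasal epithelium, had 2128 guides (534 genes) with a median of 0.12 and an SD of 0.99. Guides to genes at 10 CPM or more in control cells were 3429 (862 genes), with a median of 0.17 and an SD of 0.97. The control guides had a median of 0.085 and an SD of 0.98, and with 1 library per host none of the differences in median was tested. In abundance the controls, at 55.7 CPM in C57BL/6 and 73.6 CPM in Rag1-KO hosts, stood above all 3 groups. Guides to genes listed at 0 had medians of 49.0 CPM in C57BL/6 and 44.7 CPM in Rag1-KO hosts. Guides to expressed genes had 44.0 CPM in C57BL/6 and 39.1 CPM in Rag1-KO hosts, and olfactory receptor guides 30.1 CPM in C57BL/6 and 27.4 CPM in Rag1-KO hosts.

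Measured against the control range, 683 of the 18084 targeting guides lay outside it (3.78%). That range is the lowest and highest of only 24 guides, and guides that vary like the controls can also fall outside it. Whether 3.78% differs from what such guides would give was not tested. Of the 683 guides, 487 were above the highest control, CTRL0006, and 196 below the lowest, CTRL0001. Among olfactory receptor guides 5.22% were outside the control range, among guides to expressed genes 4.72% and among guides to genes listed at 0 2.61%. The lower limit depends on CTRL0001. Without it 438 targeting guides were below the controls. Limits of 2 SD on either side of the control median left 304 guides above and 427 below, and adding 5 CPM in place of 1 gave 583 above and 103 below the control range.

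Guides to the same gene differed among themselves about as much as the controls did. The library carries 4 guides for 4529 of its 4532 genes. In the 4492 genes with all 4 guides above the read minimum, the SD among guides of a gene was 0.92, against 0.98 among controls. If guides varied independently with the control SD, means over 4 would have an SD of 0.49, and the observed SD of gene means was 0.47. The 0.49 depends on CTRL0001, since the control SD was 0.87 without it and would give a lower value. Whether genes differ beyond their guides was therefore not decided by these 2 values. In 641 of these genes (14.3%), at least 1 guide was 2-fold or more higher and another 2-fold or more lower in the C57BL/6 library. Over all single guides 14.9% were at or above 2-fold and 11.1% at or below it. Whether 641 differs from what independent guides would give was not tested. The gene medians were past 2-fold upward in 159 genes and downward in 82 (5.37% together). These gene counts were made with library totals only, and the split of single guides between higher and lower rests on the scaling. A median outside the range of the controls was found in 5 genes, 4 above and 1 below.

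The 4 guides to Mbtps1, which encodes site-1 protease and is the gene the series is about, were poorly read beside the controls. SMprotein_08717 had 66 reads in C57BL/6 and 551 in Rag1-KO hosts, a log2 ratio of -3.12, below the lowest control. Its counting interval, without the added 1 CPM, was -3.96 to -3.20, and at so few reads the added 1 CPM draws the ratio toward 0. SMprotein_08716 had 96 reads in C57BL/6 and 24 in Rag1-KO hosts, a log2 ratio of 1.01, inside the control range. Its counting interval, also without the added 1 CPM, was 0.84 to 2.20 and reached past the highest control at 1.84. The other two had 0 reads in C57BL/6 with 17 in Rag1-KO hosts, and 0 in both, under the 20-read minimum that every control passed. The Mbtps1 guides thus pointed in opposite directions, and the control least read over both libraries, with 502 reads, exceeded all but one of them.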

How the data were processed

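The guide table and the gene table are whole-number read counts as deposited by the authors, and the values, which sum to a different total in each library, show no normalisation. The submitters' processing notes list general alignment tools, among them STAR 2.7.1a and HTSeq 0.13.5, and the build hg38, without saying what made the guide counts. Per the labels' protocols the screen libraries had the same RNA extraction as the RNA libraries. The sources used here do not say how guides were amplified or matched.

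Here counts were scaled to CPM and the log2 ratio of C57BL/6 over Rag1-KO was taken with 1 CPM added, for guides whose reads summed to at least 20 (Python 3.11.15, numpy 2.4.6, pandas 2.3.3, scipy 1.17.1). The log2 ratio and its counting SD were tested on simulated data, and the other steps were not. Expression classes use the mean CPM of the 3 control cell libraries. Genes of the library missing from the gene table entered neither class. All 24 controls are described, with counting intervals for those at the ends of the list, and beside them the guides of Mbtps1. The controls, classes and limits were chosen with earlier results of these data known. No test was made, and spacer sequences and genome matches are not used here. Some genes outside the control range are not reported here by name.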

Additional observations from a re-analysis of the deposited data

How the results depend on the processing

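The number of targeting guides outside the control range stayed within 1.5 times of the 683 reported under every alternative tried, from 679 to 925. The median control ratio of 0.085 moved only with the scaling. It was -0.042 with the median ratio over all guides, 0.35 with the summed control reads and 0.13 with those sums less CTRL0001. Scaling by the median control ratio gave -1.95e-05, a value near 0 by construction. The scalings by the controls less CTRL0001 and by their median and the removal of CTRL0001 were chosen after seeing the data. The control SD of 0.98 was 0.91 with 5 CPM added, 0.73 when taken from the median absolute deviation, scaled to match the SD of a normal distribution, and 0.87 without CTRL0001. At a 1.5-fold threshold 11 controls were past it instead of 7, against 50.5% of all guides. No other alternative moved the count beyond 6 to 8. Adding 0.5 CPM, no filter on reads and a 100-read minimum changed none of these 4 results by more than counting error or 1.5 times. No paired analysis was possible because each host has 1 library. With 24 controls and 1 library per host, the control spread cannot be divided into a part of the host and a part of the animal, tumour or library.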

Other observations

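Some genes with a median ratio outside the control range were named after their values were seen. Above it were Npc1l1, a cholesterol uptake transporter (median 2.06), Olfr869, an olfactory receptor (1.89), and Hspg2, the basement membrane proteoglycan perlecan (1.89). Below it was Ept1 (-2.44). Guide ratios ran from 0.79 to 2.48 for Npc1l1, 1.09 to 2.65 for Olfr869, -0.35 to 2.11 for Hspg2 and -3.34 to -0.56 for Ept1. Of the 4492 genes with all 4 guides above the read minimum, 4 had all 4 guides at least 2-fold higher in the C57BL/6 library, Olfr869, Ceacam10, Cst7 and Soga1, and 0 had all 4 at least 2-fold lower, where 14.9% of single guides were at or above 2-fold and 11.1% at or below it. All 4 ratios were above 0 in 9.95% of these genes and below 0 in 4.01%. Single guides were themselves more often above 0, 10084 of 18108 against 8024 below. Whether the gene shares differ from what independent guides would give was not tested. The split of single guides between higher and lower rests on the scaling, and these gene counts were made with library totals only. For Olfr869, 2 of the guides had only 10 and 32 reads in the Rag1-KO library. No test was possible with 1 library per host.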
